A study of Mus musculus with 16 samples.

Results

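T cell and intraepithelial lymphocyte genes, 10 in all, were read in the ileum of diabetic STAM mice, namely Cd3d, Cd3e, Cd3g, Cd4, Cd8a, Cd8b1, Gzma, Gzmb, Itgae and Ccl5. They were chosen by name, as genes of the T cell receptor complex, the coreceptors and the cytotoxic program, and make up 10 of the 41740 genes listed. Total RNA of the whole ileal wall was sequenced in 16 male mice of 20 weeks of age on a C57BL/6J background, 1 library per mouse. All mice carried a floxed insulin receptor gene (InsR-flox), received streptozotocin on day 2 after birth and, from the age of 4 weeks, ate a diet high in fat. Control-STAM-nonINS mice (n = 4) had no Cre, written Vilin-Cre(-) in the labels, and received saline. Control-STAM-INS mice (n = 6) had the same genotype and received the long-acting insulin degludec from 6 weeks of age, in 2 injections a day of up to 12 U/kg. ieIRKO-STAM-INS mice (n = 6) carried Vilin-Cre(+), which is active in the intestinal epithelium, and received the same insulin. T cells are not targeted by this Cre driver.

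T cells recognise antigen through a T cell receptor that signals through the CD3 chains, which are made by Cd3d, Cd3e, Cd3g and Cd247. CD4 and CD8 are coreceptors that divide T cells into helper and cytotoxic lineages, and CD8 exists as an alpha-alpha homodimer or as an alpha-beta heterodimer of the products of Cd8a and Cd8b1. In the small intestine, many T cells sit between the epithelial cells as intraepithelial lymphocytes. Those cells are rich in CD8 alpha-alpha, hold on to epithelial E-cadherin through the integrin CD103 (Itgae) paired with the beta 7 chain (Itgb7), and store granzymes, while CD4 T cells are more frequent in the lamina propria.

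Between 13288018 and 22215382 reads were counted on genes per library, and all 10 genes were among the 15267 genes that passed the filter on low counts. The epithelial genes Epcam and Vil1 had group means between 2248 and 2878 CPM (counts divided by the TMM-scaled library total), and the ileal bile acid binding protein gene Fabp6 had group means between 4374 and 6588 CPM. Insr, the targeted gene, had 67.2 ± 13.4 CPM in the libraries labelled ieIRKO-STAM-INS (SD, n = 6), 62.7 ± 10.1 with insulin in the control genotype (SD, n = 6) and 105 ± 12.3 without (SD, n = 4), and was thus not lower under that label than in Control-STAM-INS in this whole-wall RNA. A pair of the libraries labelled ieIRKO-STAM-INS, replicates 2 and 3, stood apart by B cell genes. Averaged over Cd79a, Cd79b and Ms4a1, log2 CPM was 6.46 and 5.75 there and between 1.85 and 3.64 in the other 14 libraries, and results that rest on these 2 libraries are given with and without them. In whole-wall RNA, fewer cells of a type and less RNA per cell cannot be told apart.

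The 3 CD3 genes lie side by side on chromosome 9 (GRCm38), with Cd3g at chr9:44969572-44980431 on the minus strand, Cd3d at chr9:44981786-44987339 on the plus strand and Cd3e at chr9:44998740-45009627 on the minus strand. The starts of the divergent neighbours Cd3g and Cd3d are 1355 bases apart. Cd8a lies at chr6:71373427-71379173 and Cd8b1 at chr6:71322788-71337494. The RefSeq promoter windows (250 bases before to 50 after the start, GRCm38.p6) of the 3 CD3 genes and of Cd8a are shown because Cd3g, Cd3e and Cd8a were called in the insulin comparison and Cd3d shares their cluster. Capitals mark AGGAAG (a core bound by ETS factors) or CTTTGA (a core bound by TCF factors), searched on both strands, as was TGTGGT (a core bound by RUNX factors), and no match overlapped another.
Cd3g, chr9:44980382-44980681, minus strand: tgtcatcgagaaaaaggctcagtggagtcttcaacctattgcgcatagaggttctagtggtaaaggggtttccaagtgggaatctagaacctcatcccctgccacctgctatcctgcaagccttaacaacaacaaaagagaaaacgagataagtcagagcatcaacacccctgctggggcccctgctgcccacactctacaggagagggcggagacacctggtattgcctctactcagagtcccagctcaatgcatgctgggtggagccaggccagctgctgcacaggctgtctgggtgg
Cd3d, chr9:44981536-44981835, plus strand: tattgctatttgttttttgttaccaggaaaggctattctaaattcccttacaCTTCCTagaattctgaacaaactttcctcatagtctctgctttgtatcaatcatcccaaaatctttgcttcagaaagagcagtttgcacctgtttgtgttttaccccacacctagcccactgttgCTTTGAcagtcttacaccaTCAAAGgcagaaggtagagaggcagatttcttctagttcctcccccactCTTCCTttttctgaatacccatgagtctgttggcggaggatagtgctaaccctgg
Cd3e, chr9:45009562-45009861, minus strand: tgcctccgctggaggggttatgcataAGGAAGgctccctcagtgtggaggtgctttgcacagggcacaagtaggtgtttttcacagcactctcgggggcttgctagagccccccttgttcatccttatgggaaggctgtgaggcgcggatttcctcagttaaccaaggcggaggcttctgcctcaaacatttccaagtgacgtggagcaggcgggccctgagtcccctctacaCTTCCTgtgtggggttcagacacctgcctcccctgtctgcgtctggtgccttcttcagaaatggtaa
Cd8a, chr6:71373177-71373476, plus strand: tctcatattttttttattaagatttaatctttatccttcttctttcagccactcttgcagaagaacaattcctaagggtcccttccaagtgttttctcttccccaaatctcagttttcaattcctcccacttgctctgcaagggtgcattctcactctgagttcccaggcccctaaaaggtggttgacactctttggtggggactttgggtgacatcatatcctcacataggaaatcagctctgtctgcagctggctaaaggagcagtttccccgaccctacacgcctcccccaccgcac
The Cd3d window held 2 ETS and 2 TCF cores, the Cd3e window held 2 ETS cores, and the windows of Cd3g and Cd8a held none of the 3. Promoter windows were found for 6 of the 10 genes; of the remaining ones, Gzma had 1 RUNX core and Gzmb had 2. Among 32851 promoters of the same length, 35.4% held the ETS core, 16% the TCF core and 16.8% the RUNX core, so the matches are a description of these letters alone.

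**Figure D1:**
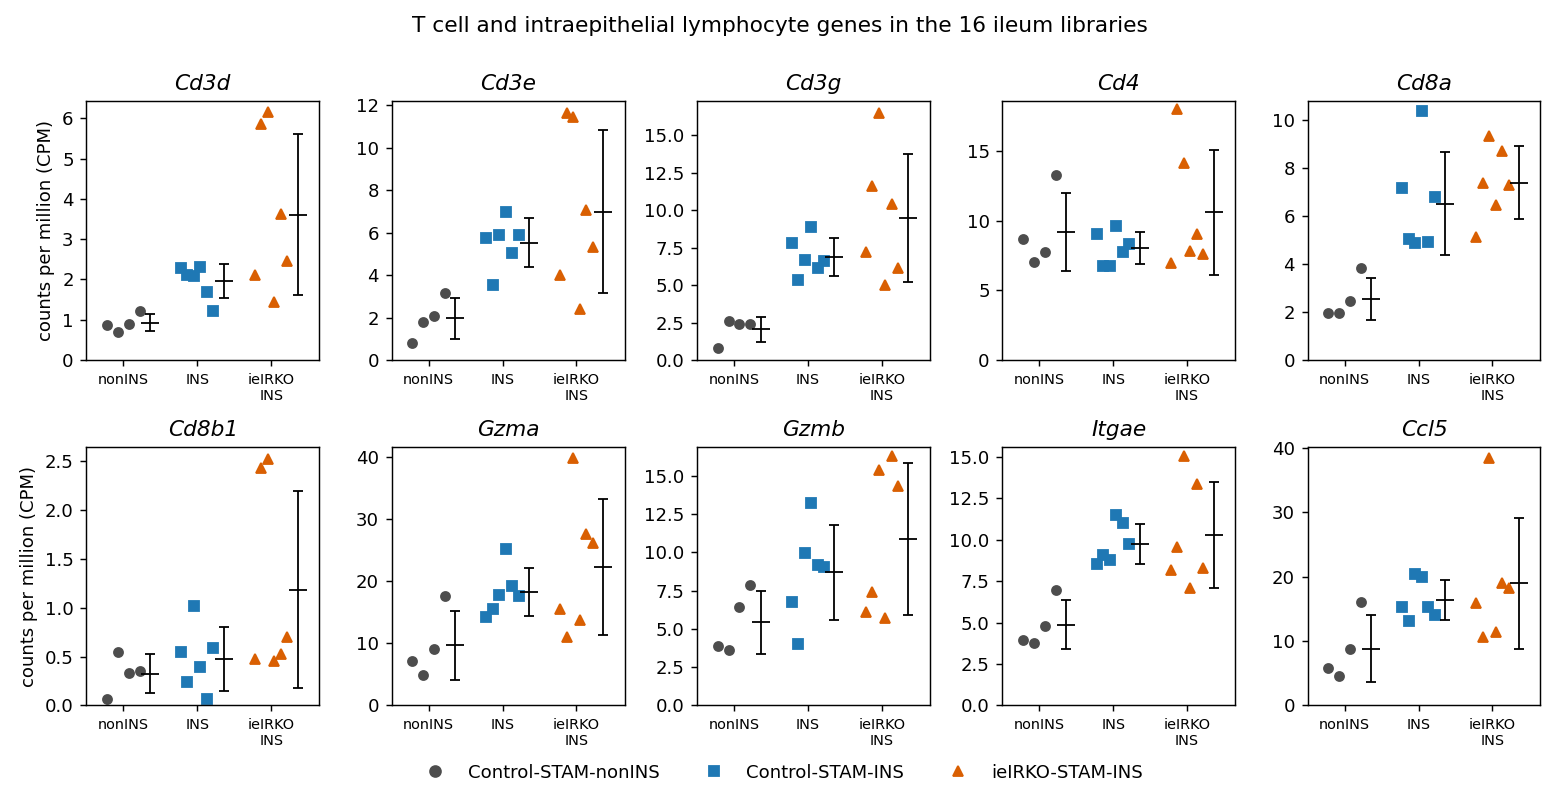
CPM (vertical axis, from 0) of the 10 genes in each of the 16 libraries. Each symbol is 1 mouse, and the bar beside each group is the mean with its SD. The CD3 genes, Cd8a and Itgae sat lowest in Control-STAM-nonINS, Cd4 did not, and the 2 highest values of Cd3d, Cd3e, Cd3g, Cd4 and Cd8b1 belonged to libraries labelled ieIRKO-STAM-INS.

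Per kilobase of annotated exon, the cytotoxic and chemokine genes had the highest levels of the 10. In Control-STAM-nonINS, Gzma had 9.60 ± 5.49 CPM per kilobase (SD, n = 4) and Ccl5 had 9.19 ± 5.40, followed by Gzmb with 3.79 ± 1.43 and Cd4 with 2.28 ± 0.691. Itgae (1.06 ± 0.319), Cd8a (0.699 ± 0.241), Cd3g (0.627 ± 0.256), Cd3d (0.509 ± 0.120) and Cd3e (0.479 ± 0.236) came next, and Cd8b1 was lowest at 0.219 ± 0.133. Gzma and Ccl5 differed in this group by less than their SDs, as did Cd3g, Cd3d and Cd3e among themselves. In Control-STAM-INS, Gzma (18.1 ± 3.79, SD, n = 6) and Ccl5 (17.1 ± 3.24) again had the highest levels and Cd8b1 (0.320 ± 0.222) the lowest. There, Cd3g (2.11 ± 0.386 CPM per kilobase), Itgae (2.13 ± 0.264) and Cd4 (1.99 ± 0.293) lay within their SDs of each other, and Cd8a was at 1.79 ± 0.586. With 1 to 17 counts per library outside ieIRKO-STAM-INS replicates 2 and 3, Cd8b1 was near the limit of what these libraries resolve.

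The comparison of Control-STAM-INS with Control-STAM-nonINS asks what insulin treatment of the diabetic mice did in mice with intact insulin receptors. Cd3e, Cd3g, Cd8a and Itgae rose with insulin, by 1.98- to 3.34-fold, while Cd4 had 8.04 ± 1.18 CPM with insulin (SD, n = 6) against 9.20 ± 2.79 without (SD, n = 4) and was not called. Of the 10 genes, 4 were called higher and 0 lower at an adjusted p under 0.05, against 3.73% of all tested genes called higher. The median log2 fold change was 0.94 over the 10 genes and -0.0043 over the 15267 tested genes. In those same 4 genes, all Control-STAM-INS libraries lay above all Control-STAM-nonINS libraries, which held in the higher direction for 4.4% of all tested genes. Adjusted p-values here and below are from edgeR's quasi-likelihood test with the Benjamini-Hochberg adjustment over all tested genes.

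Of the CD3 chains, Cd3g changed most. It had 0.804, 2.59, 2.40 and 2.41 CPM in the 4 Control-STAM-nonINS libraries, and between 5.34 and 8.89 CPM, with a median of 6.62, in the 6 Control-STAM-INS libraries. The groups did not overlap. The rise was 3.34-fold (95% confidence interval 2.11 to 5.29, log2 fold change 1.74, standard error 0.34, adjusted p = 0.00398). Cd3e, which forms CD3 dimers with both of the other chains, had 0.804, 1.80, 2.07 and 3.15 CPM without insulin, and between 3.53 and 6.98, with a median of 5.82, with insulin. Again every treated library lay above every untreated one. The rise was 2.76-fold (interval 1.57 to 4.86, log2 fold change 1.47, standard error 0.42, adjusted p = 0.0336). This call was close to the threshold: the adjusted p lay between 0.0289 and 0.106 when single libraries were left out, and was over 0.05 without Control-STAM-nonINS replicate 1, 2 or 3 or Control-STAM-INS replicate 1, 3, 4 or 6. Cd3e also overlaps an antisense gene model and a gene model on its own strand, and the strand setting of the counting is not given in the sources used here. Cd3d had 0.871, 0.706, 0.895 and 1.22 CPM without insulin and between 1.22 and 2.30, with a median of 2.11, with insulin. The lowest treated library met the highest untreated one, and the gene was not called (log2 fold change 1.05, standard error 0.38, adjusted p = 0.0847). DESeq2 called Cd3d, as did the fits without ieIRKO-STAM-INS replicates 2 and 3 (adjusted p = 0.0291) and with only the 2 groups compared.

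The coreceptors differed from each other. Cd8a had 1.94, 1.96, 2.46 and 3.80 CPM in Control-STAM-nonINS and between 4.85 and 10.3 CPM, with a median of 5.91, in Control-STAM-INS, with no overlap. The rise was 2.52-fold (95% confidence interval 1.78 to 3.57, log2 fold change 1.33, standard error 0.26, adjusted p = 0.00341). Cd4, at chr6:124864692-124888221 on the minus strand, had 8.71, 7.06, 7.77 and 13.3 CPM without insulin and between 6.75 and 9.61, with a median of 8.02, with insulin. The ranges overlapped, and the log2 fold change was -0.20 (95% confidence interval -0.69 to 0.29, adjusted p = 0.673), an interval that leaves out the rise seen in Cd8a. Cd8b1, whose product makes the alpha-beta form of CD8, had 0.0670, 0.549, 0.336 and 0.350 CPM without insulin, and between 0.0679 and 1.02, with a median of 0.472, with insulin. Its log2 fold change of 0.59 had an interval from -0.79 to 1.97 (adjusted p = 0.653), so a change of the size of that in Cd8a was not detectable at this depth.

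Itgae, the CD103 chain at chr11:73090583-73147446 on the plus strand, had 3.95, 3.76, 4.81 and 6.95 CPM in the untreated mice. With insulin, Itgae was between 8.56 and 11.5 CPM, with a median of 9.41. Every treated library was above every untreated one, and the rise was 1.98-fold (95% confidence interval 1.47 to 2.67, log2 fold change 0.99, standard error 0.22, adjusted p = 0.00821). Haspin lies inside Itgae on the opposite strand, so reads of both could be mixed if strand was not used. The partner chain Itgb7 also rose, from 5.54 ± 1.29 CPM (SD, n = 4) to 12.1 ± 3.17 (SD, n = 6), with a log2 fold change of 1.11 (adjusted p = 0.0226) and no overlap.

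The cytotoxic genes and Ccl5, a chemokine made by activated CD8 T cells, were not called by edgeR. DESeq2 called Gzma (log2 fold change 0.93, adjusted p = 0.0437). Gzma, at chr13:113093825-113100981, had 7.17, 4.86, 9.06 and 17.5 CPM without insulin and between 14.2 and 25.1, with a median of 17.7, with insulin. Ccl5, at chr11:83525778-83530518, had 5.76, 4.63, 8.78 and 16.1 CPM without insulin and between 13.1 and 20.5, with a median of 15.4, with insulin. In both genes the treated libraries lay above 3 of the untreated ones and overlapped with the last, Control-STAM-nonINS replicate 4. The log2 fold changes were 0.89 for Gzma (standard error 0.37, adjusted p = 0.146) and 0.87 for Ccl5 (standard error 0.37, adjusted p = 0.154). Without Control-STAM-nonINS replicate 4 they were 1.36 for Gzma (adjusted p = 0.0405) and 1.35 for Ccl5 (adjusted p = 0.0390). That library also held the highest Cd3d, Cd3e, Cd4, Cd8a, Gzmb and Itgae of its group. Gzmb, at chr14:56258838-56262260, had 3.88, 3.61, 6.43 and 7.87 CPM without insulin and between 4.00 and 13.2, with a median of 9.10, with insulin. A log2 fold change of 0.66 was fitted for Gzmb (standard error 0.37, adjusted p = 0.282), and the ranges overlapped.

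**Figure D2:**
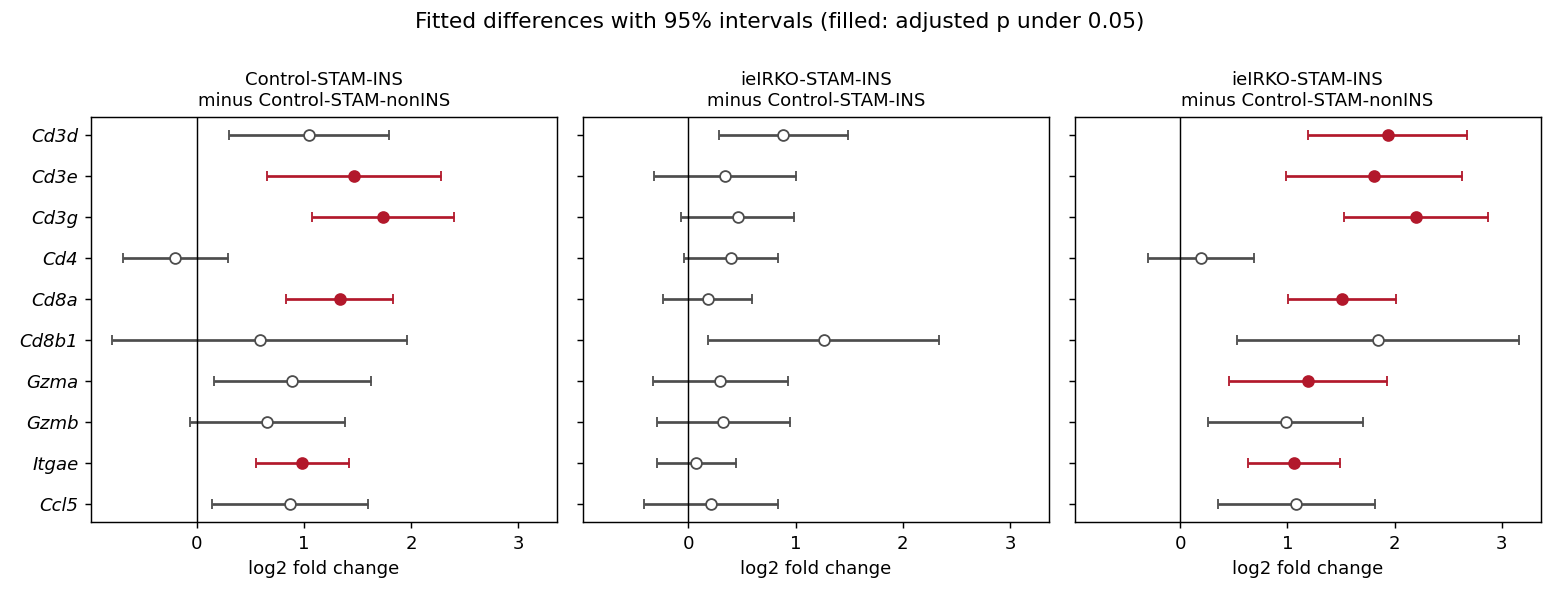
Fitted log2 fold changes (horizontal axis) of the 10 genes in the 3 comparisons, with 95% confidence intervals. Filled symbols have an adjusted p under 0.05: 4 genes in the insulin comparison, 0 between the insulin-treated groups and 6 between ieIRKO-STAM-INS and Control-STAM-nonINS.

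Ratios of counts within a library do not depend on how libraries are scaled. In all, 8 ratios among the 10 genes were compared in each of the 3 comparisons by exact two-sided permutation tests, with p-values adjusted over the 24 tests. The ratio of Cd4 to Cd8a counts was 4.37, 3.50, 3.11 and 3.45 in the 4 Control-STAM-nonINS libraries and between 0.930 and 1.58 in the 6 Control-STAM-INS libraries. All treated libraries lay below all untreated ones, with mean log2 ratios of 0.35 ± 0.25 (SD, n = 6) and 1.84 ± 0.21 (SD, n = 4). The difference was -1.49 on the log2 scale (exact permutation test, p = 0.00476, the lowest value possible with 4 and 6 libraries, adjusted p = 0.0381). The ratio of Gzmb to Cd3e was 4.54, 1.96, 3.05 and 2.48 without insulin and between 1.13 and 1.89 with insulin, again without overlap. Its difference was -0.93 on the log2 scale (exact permutation test, p = 0.00476, adjusted p = 0.0381), a lower ratio of Gzmb to Cd3e counts with insulin. The ratio of Cd4 to Cd8a in ieIRKO-STAM-INS libraries lay between 1.04 and 2.44, below all Control-STAM-nonINS libraries (log2 difference -1.39, exact permutation test, adjusted p = 0.0381). Without replicates 2 and 3 of that label the difference was -1.63, and the lowest p that 4 against 4 libraries allow in the exact permutation test, 0.0286, could hardly pass an adjustment over 24 tests (adjusted p = 0.196). Against Control-STAM-INS, its difference was 0.11 (exact permutation test, p = 0.673, adjusted p = 0.850). None of the other ratios passed the adjusted threshold. With any 1 library other than Control-STAM-INS replicate 2 left out, 0 of the 24 tests passed. In a comparison with Control-STAM-nonINS that lost a library, the lowest p possible was 0.0119 for 3 against 6 libraries or 0.00794 for 4 against 5. It stayed at 0.00476 where 4 against 6 remained. The closest between the insulin-treated groups was Cd3d to Cd3e, with mean log2 ratios of -0.93 ± 0.12 in ieIRKO-STAM-INS and -1.47 ± 0.49 in Control-STAM-INS (exact permutation test with n = 6 each, p = 0.0195, adjusted p = 0.117). Its difference was 0.54 with all libraries. Without Control-STAM-INS replicate 2 it was 0.69 and passed (exact permutation test, adjusted p = 0.0476).

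**Figure D3:**
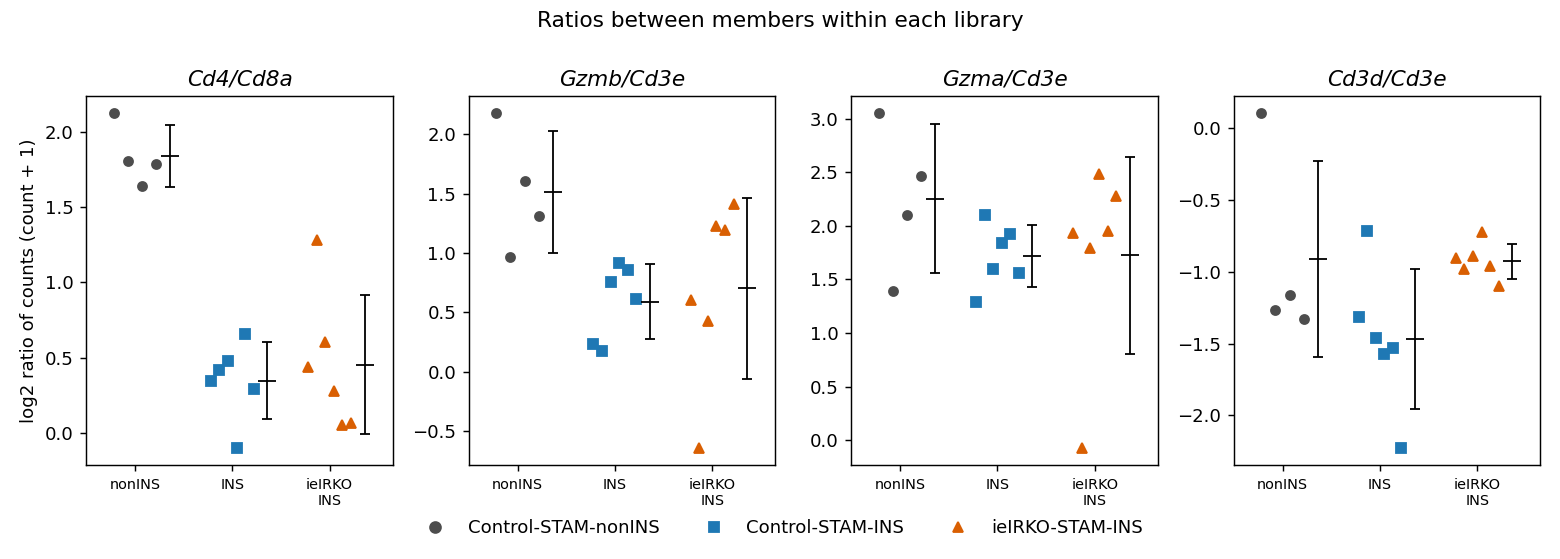
Log2 ratios of counts (1 added to each count) of 4 pairs of genes in each library, with the group mean and SD beside the symbols. The Cd4 to Cd8a ratio was at least 1.64 on the log2 scale in the 4 Control-STAM-nonINS libraries and at most 1.28 in the other 12, and the Gzmb to Cd3e ratio ran from -0.65 to 1.41 under the ieIRKO-STAM-INS label.

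The comparison of ieIRKO-STAM-INS with Control-STAM-INS was designed to ask about the epithelial deletion of the insulin receptor in insulin-treated mice, although Insr was not lower under the ieIRKO-STAM-INS label in these libraries. Counts per gene of the whole wall do not show the floxed part of Insr apart from the rest. None of the 10 genes was called in either direction by edgeR (0 of 10, against 0.0393% of all tested genes called higher), and DESeq2 and the likelihood ratio test also called 0. At an unadjusted p under 0.05 in edgeR, 2 of the 10 were higher, Cd3d and Cd8b1, against 7.38% of all tested genes, a count from which nothing is read because Cd8b1 was tested only through the libraries where it was high. Their exact permutation p-values were 0.0909 for Cd3d and 0.119 for Cd8b1. No gene of the 10 was free of overlap between the groups, against 0.439% of all tested genes in the higher direction. All 10 fitted log2 fold changes were above 0, with a median of 0.33 against 0.017 over all tested genes. Without replicates 2 and 3 of the libraries labelled ieIRKO-STAM-INS, 5 of the 9 genes tested were above 0 and the median was 0.053. Cd8b1 did not pass the filter on low counts in that fit, so its place among the tested genes rests on these 2 libraries.

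The 2 libraries held the highest values of the group for the CD3 chains, Cd4 and Cd8b1. Cd3d was 5.86 and 6.16 CPM in replicates 2 and 3 and between 1.43 and 3.62 in the other 4 libraries of that label. Its log2 fold change against Control-STAM-INS was 0.89 (95% confidence interval 0.28 to 1.49, unadjusted p = 0.0101 and adjusted p = 0.317 in edgeR), and 0.30 (adjusted p = 0.882) without both. Cd3e was 11.7 and 11.5 CPM in replicates 2 and 3 and between 2.41 and 7.08 in the other 4. Its log2 fold change was 0.34 (interval -0.33 to 1.00, adjusted p = 0.744) with both libraries and -0.23 without. Cd3g was 11.6 and 16.5 CPM in the pair and between 5.01 and 10.4 in the rest, with log2 fold changes of 0.46 (interval -0.07 to 0.99, adjusted p = 0.548) and 0.05 without the pair. Each of these ranges overlapped with that of Control-STAM-INS.

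Cd4 was 18.0 and 14.2 CPM in replicates 2 and 3, above the other 14 libraries of the study, and between 6.95 and 9.02 in the other 4 of its label. Its log2 fold change was 0.39 (interval -0.05 to 0.84, adjusted p = 0.535) with the pair and -0.04 without. Cd8b1 was 2.43 and 2.53 CPM (36 and 41 counts) in the pair and between 0.456 and 0.705 CPM in the other 4 libraries of that label (7 to 12 counts). Its log2 fold change was 1.26 (interval 0.18 to 2.34, unadjusted p = 0.0343 and adjusted p = 0.396 in edgeR). Cd8a spread less: its values under the ieIRKO-STAM-INS label ran from 5.11 to 9.30 CPM with a median of 7.32, inside the range of Control-STAM-INS. The log2 fold change of Cd8a was 0.18 (interval -0.24 to 0.59, adjusted p = 0.793), so a rise as large as that with insulin lies outside its interval.

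Gzma and Ccl5 differed widely between the 2 B cell-rich libraries. Replicate 2, which had the highest B cell level of all 16 libraries, had the lowest Gzma (11.1 CPM) and Ccl5 (10.7 CPM) of its label, while replicate 3 had the highest Gzma (39.8) and Ccl5 (38.5) of the study. Over the group, Gzma had a median of 20.9 CPM and a log2 fold change of 0.30 (interval -0.33 to 0.93, adjusted p = 0.771), and Ccl5 had a median of 17.1 CPM and a log2 fold change of 0.21 (interval -0.41 to 0.84, adjusted p = 0.841). Gzmb ran from 5.73 to 16.3 CPM with a median of 10.9 and a log2 fold change of 0.33 (interval -0.30 to 0.95, adjusted p = 0.735). Itgae ran from 7.10 to 15.03 CPM with a median of 8.93, and its log2 fold change of 0.07 had an interval from -0.29 to 0.44 (adjusted p = 0.906).

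**Figure D4:**
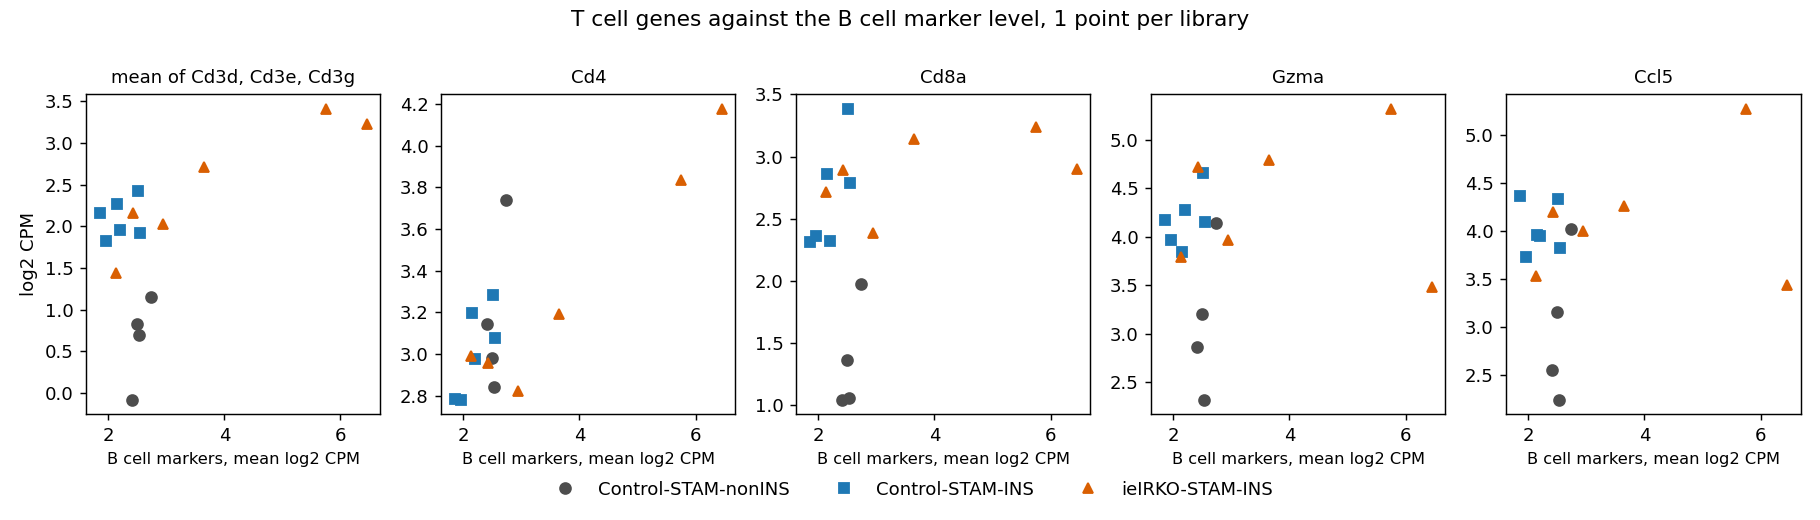
Log2 CPM of T cell genes (vertical axes) against the mean log2 CPM of the B cell genes Cd79a, Cd79b and Ms4a1 (horizontal axes), 1 symbol per library. The 2 libraries at 5.75 and 6.46 on the horizontal axis held the highest Cd3 mean and Cd4, and were far apart in Gzma and Ccl5.

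The B cell genes themselves were unequal within that label. Cd79a, a signalling chain of the B cell receptor, was 119 and 84.1 CPM in replicates 2 and 3 and between 14.7 and 29.1 in the other 4, against 8.79 to 18.0 in Control-STAM-INS. The summed level of the 11 B cell and follicle genes, 10 of them tested, ran from 34.3 to 634 CPM in the libraries labelled ieIRKO-STAM-INS, from 26.2 to 43.3 in the insulin-treated controls and from 36.7 to 52.2 without insulin. Of these 10 tested genes, 0 were called between the insulin-treated groups by edgeR and 10 were above 0. All 10 were higher at an unadjusted p under 0.05 in edgeR, against 7.38% of all tested genes. Their median log2 fold change was 3.21, which was 0.34 without replicates 2 and 3. The contribution of B cell-rich tissue to the T cell values was not tested. With the B cell level as a covariate, 3 of the 10 T cell genes were above 0 between the insulin-treated groups. In the insulin comparison, that fit called Cd3d, Cd3e, Cd3g, Cd8a and Itgae higher, against 3.96% of all tested genes.

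Between ieIRKO-STAM-INS and Control-STAM-nonINS, which differ in both genotype and insulin and share their libraries with the comparisons above, 6 of the 10 genes were called higher and 0 lower, against 5.74% of all tested genes called higher. The rises were 4.59-fold for Cd3g (adjusted p = 0.000817), 3.82-fold for Cd3d (adjusted p = 0.00325), 3.50-fold for Cd3e (adjusted p = 0.00980), 2.85-fold for Cd8a (adjusted p = 0.00132), 2.28-fold for Gzma (adjusted p = 0.0493) and 2.09-fold for Itgae (adjusted p = 0.00457), all from edgeR. In Cd3d, Cd3g, Cd8a and Itgae the groups did not overlap, which held in the higher direction for 3.8% of all tested genes. Without replicates 2 and 3, Cd3g (log2 fold change 1.81, adjusted p = 0.00228), Cd3d (1.36, adjusted p = 0.0137), Cd3e (1.25, adjusted p = 0.0357), Cd8a (1.42, adjusted p = 0.00670) and Itgae (0.91, adjusted p = 0.0159) were still called in edgeR, and Gzma was not (1.09, adjusted p = 0.0623). Cd4 had a log2 fold change of 0.19 with an interval from -0.30 to 0.69 (adjusted p = 0.644). Markers of other cells were also called in this comparison, in which 1159 of the 15267 tested genes were called lower. Without replicates 2 and 3, 3.45% of all genes tested in that fit were called higher. Of 7 plasma cell genes, 4 were higher (Jchain, Derl3, Tnfrsf17 and Mzb1) and Sdc1 was lower, and without replicates 2 and 3 there were 5 higher. Of 10 tested B cell genes 2 were higher (Cd79a and Fcer2a) and without those libraries 0. Of 14 myeloid and dendritic genes 4 were higher (Clec9a, Itgam, Itgax and Xcr1) and without them 2 (Itgam and Xcr1). Xcr1 was tested through the groups where it was higher, so its call is not read as a result. Of 6 pan-leukocyte genes 1 was higher (Cd53), and of 8 epithelial genes Fabp6 was lower. Of 6 proliferation genes Mcm2 was higher, and of 4 endothelial genes Vwf was lower. Without the pair, 0 of the pan-leukocyte, epithelial, proliferation and endothelial genes were called. Their contribution to the T cell values was not tested.

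The constant genes Trac, Trbc1, Trbc2, Trdc, Tcrg-C1, Tcrg-C2 and Tcrg-C4, which encode the antigen-binding chains of alpha-beta and gamma-delta T cells, were listed at 0 counts in all 16 libraries, although the CD3 chains were counted in each, so the 2 lineages could not be told apart here. Cd247, the zeta chain, had 1.41 ± 0.708 CPM in Control-STAM-nonINS (SD, n = 4) and 1.78 ± 0.640 in Control-STAM-INS (SD, n = 6), and was not called (log2 fold change 0.32, adjusted p = 0.754). It was 6.47 and 4.80 CPM in replicates 2 and 3 of the libraries labelled ieIRKO-STAM-INS, and between 0.977 and 2.41 in the other 4.

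Of 24 tested other genes of T cell receptor signalling and T cell identity, 0 were called higher (against 3.73% of all tested genes) and 1 lower (against 6.76%) with insulin in the control genotype, and the median log2 fold change was 0.19. The gene that fell was Tox, a nuclear factor of T cell development that other cells of the wall may also make, from 20.5 to 12.6 CPM (log2 fold change -0.70, adjusted p = 0.00232). Lat, the adaptor downstream of CD3, had a log2 fold change of 1.07 (adjusted p = 0.149) and the kinase gene Lck had 1.01 (adjusted p = 0.208). In both, all treated libraries lay above all untreated ones. Without ieIRKO-STAM-INS replicates 2 and 3 in the fit, 3 of the 24 were called higher with insulin (Lck, Lat and Fyb), against 3.7% of all genes tested in that fit. With the B cell covariate, 6 were (Lck, Gimap3, Lat, Lcp2, Fyb and Cd5), against 3.96%. Between the insulin-treated groups, 0 of the 24 were called by edgeR, 14 were higher at an unadjusted p under 0.05 (against 7.38% of all tested genes), and the median log2 fold change was 0.85, which was -0.0076 without replicates 2 and 3. The largest there were Lef1 (log2 fold change 2.19, adjusted p = 0.251) and Cd2 (1.93, adjusted p = 0.339), which had 0.83 and -0.17 without replicates 2 and 3. Against Control-STAM-nonINS, the libraries labelled ieIRKO-STAM-INS had 7 of the 24 called higher (against 5.74% of all tested genes), among them Lat, Lck and Lcp2. The 1 called lower was Tox, where 1159 of the 15267 tested genes were called lower. Without replicates 2 and 3, Lck, Lat and Lcp2 were called higher, against 3.45% of all genes tested in that fit, and 0 were lower.

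Of 13 tested cytotoxic and NK-like genes beside the 10, 2 were called higher with insulin in the control genotype, against 3.73% of all tested genes, and 0 lower. Cd160, a receptor found on intestinal CD8 and NK-like cells, rose from 1.16 to 2.68 CPM (log2 fold change 1.21, adjusted p = 0.0235), and Xcl1, a chemokine of CD8 T cells and NK cells, was the other. Xcl1 had 2 to 5 counts in the libraries without insulin, under the minimum of the filter on low counts, and was tested through the groups where it was higher, so its call is not read as a result. With the B cell covariate, Cst7, Cd160 and Nkg7 were called in this list and Xcl1 was not. Nothing is read from that count, since the list holds genes tested through the groups where they were higher. Xcr1, the receptor of that chemokine on dendritic cells, had 0.596 CPM without insulin and 1.80 with it (log2 fold change 1.62, adjusted p = 0.00632). It too was tested through the groups where it was higher, so its call is not read as a result. The perforin gene Prf1 had 0.773 CPM with insulin and 0.263 without (adjusted p = 0.0661) and Nkg7 had a log2 fold change of 1.05 (adjusted p = 0.0621). Against Control-STAM-nonINS, the libraries labelled ieIRKO-STAM-INS had 5 of the 13 called higher (Cst7, Cd160, Nkg7, Prf1 and Ctsw, against 5.74% of all tested genes). Without replicates 2 and 3 there were 3 (Xcl1, Nkg7 and Prf1, against 3.45% of all genes tested in that fit). Prf1 and Xcl1 were tested through the groups where they were higher, so nothing is read from these counts. Between the insulin-treated groups 0 of the 13 were called and 2 were higher at an unadjusted p under 0.05, against 7.38% of all tested genes. The summed level of this list was 61.9 and 69.97 CPM in replicates 2 and 3 of ieIRKO-STAM-INS, the highest of the 16 libraries, followed by 59.5 in replicate 5, which was next after them in B cell level.

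Of 23 tested genes of homing, retention and maintenance of intraepithelial lymphocytes, Itgb7 was the 1 called with insulin in the control genotype, and 0 were called lower, a share near the 3.73% of all tested genes called higher. Ccr9, the chemokine receptor that brings lymphocytes to the small intestine, had a log2 fold change of 0.63 (adjusted p = 0.0905) and Cxcr3 had 0.87 (adjusted p = 0.176). Between the insulin-treated groups, 0 of the 23 were called, and at an unadjusted p under 0.05, 8 were higher, against 7.38% of all tested genes, and 2 were lower. Ccr7, a chemokine receptor of lymphocytes that enter lymphoid tissue, had a log2 fold change of 2.25 there (adjusted p = 0.313). Without replicates 2 and 3, Ccr7 was at -0.14, 0 of the 23 had an unadjusted p under 0.05 in either direction in edgeR, and the median log2 fold change of the list went from 0.22 to 0.040. Against Control-STAM-nonINS, 4 of the 23 were called higher in ieIRKO-STAM-INS (Gpr55, Il15ra, Ccr9 and Itgb7), against 5.74% of all tested genes, and without that pair 2 (Gpr55 and Itgb7), against 3.45%. Of 14 tested genes of helper subsets and checkpoints, 1 was called higher and 1 lower with insulin in the control genotype (against 3.73% and 6.76% of all tested genes). Il17a, a cytokine of helper and innate-like T cells, had 0 to 1 counts in the 4 libraries without insulin and 4 to 11 in the 6 with insulin. It passed the filter on low counts through the libraries where it was high, and did not when replicates 2 and 3 of ieIRKO-STAM-INS were left out, so its call is not read as a result. Rora, a nuclear receptor also made outside lymphocytes, fell from 9.74 to 5.99 CPM (log2 fold change -0.71, adjusted p = 0.00600). Against Control-STAM-nonINS, Lag3 and Tigit were called higher in ieIRKO-STAM-INS and Rora lower, with Il17a again set aside, and without replicates 2 and 3 Rora alone was called. Among all tested genes, 5.74% were called higher and 1159 of 15267 lower with all libraries.

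Markers of other cells gave these values beside the T cell genes in the insulin comparison. The share of all tested genes called was 3.73% higher and 6.76% lower. Of 6 genes made by all leukocytes, 0 were called, with a median log2 fold change of 0.16, and of 10 tested B cell genes 0 were called, with a median of -0.46. Of 8 epithelial genes 0 were called, with a median of 0.17, and their summed level ran from 14171 to 25078 CPM in Control-STAM-nonINS and from 17754 to 25069 in Control-STAM-INS. Of 14 myeloid and dendritic cell genes, Itgam and Xcr1 were called higher. Here and below, the call of Xcr1 is not read as a result, since it was tested through the groups where it was higher. Of 7 plasma cell genes 0 were called higher and 1 lower (Sdc1), of 4 endothelial genes 2 were lower (Vwf and Cdh5), and of 6 muscle, 6 proliferation and 2 mast cell genes 0 were called. With the B cell covariate, 2 of the 6 pan-leukocyte genes (Cd52 and Coro1a, list median 0.39) and 3 of the 14 myeloid and dendritic genes (Itgam, Itgax and Xcr1) were called higher, against 3.96% of all tested genes. The B cell list's Cxcl13 was called lower in that fit and in the fit without ieIRKO-STAM-INS replicates 2 and 3. The contribution of cell composition to the T cell values was not tested.

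The genes most like the CD3 chains in pattern were found by the Pearson correlation of log2 CPM with the mean of Cd3d, Cd3e and Cd3g over the 16 libraries. These correlations are descriptions, and the points share groups, sequencing depth and the 2 B cell-rich libraries. The 10 genes highest in this measure outside the 10 T cell genes were Itgb7 (r = 0.931), Selplg (0.924), Cst7 (0.918), Myo1f (0.913), Lat (0.913), Slamf7 (0.906), Elac2 (0.904), Lcp2 (0.902), H2-T24 (0.900) and Lck (0.899), with r between 0.854 and 0.923 over the 14 libraries that remained without replicates 2 and 3. Among the 10 T cell genes, Itgae (0.899) and Cd8a (0.885) were closest to the CD3 mean, but with the group means subtracted the order was Cd4 (0.747), Itgae (0.735), Cd8b1 (0.719) and Cd8a (0.608). Cd4 had r = 0.458 over the 16 libraries and -0.057 over the 14 without the 2 B cell-rich ones. Both values hold differences between groups as well as within them. The r of Cd4 with the group means subtracted was not computed over the 14. Around the mean of Gzma and Gzmb, Ccl5 had r = 0.923 and Itgae 0.866, and the closest genes outside the 10 were Gtf2h3 (0.914), Cd7 (0.907), Ccnh (0.898), Elac2 (0.894) and P2ry13 (0.862). With the group means subtracted, Ccl5 kept r = 0.877 with the granzymes, and Cd8b1 had 0.142.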

How the data were processed

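Per the labels and the methods of the study, total RNA of the ileum was made into libraries with a directional kit, and the authors aligned the reads to GRCm38 (mm10) with CLC Genomics Workbench. The deposited values are whole-number counts of reads per gene, not normalized; strand use and the treatment of multi-mapping reads are not given in the sources used here. Samples were grouped by genotype and treatment labels, and none was left out. The smallest chi-square between 2 libraries of a group was 15.75 per degree of freedom, so no library was a repeat of another.

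Counts were analysed with edgeR 4.0.16 in R 4.3.3. Genes passed filterByExpr (minimum count 10, minimum total 15), and 15267 of 22872 detected genes remained. TMM-scaled libraries of the 3 groups were fitted together by glmQLFit (robust), and each comparison was tested by glmQLFTest, with Benjamini-Hochberg adjustment over all tested genes and a threshold of 0.05. Standard errors are the fold change over the square root of F, and 95% intervals use the normal quantile. Log2 CPM adds a prior count of 2. Exact permutation tests were two-sided (210 arrangements for 4 against 6 libraries, 924 for 6 against 6; smallest p 0.00476 and 0.00216). Ratios add 1 to each count. The method was tested on simulated data. Nothing states whether the mice of a group shared a litter or cage, so p-values measure the spread between these libraries. Positions and exon lengths are from GENCODE M21, and promoters from RefSeq.

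The members and lists were chosen with earlier results of these data known. All members were to be named, list genes if called in any comparison or among the 2 largest or 2 smallest changes of their list, chains of the receptor and Cd79a, Cd79b and Ms4a1 always, and the 10 and 5 genes most like the CD3 mean and the granzyme mean. One gene that this rule names is not reported here. Epcam and Vil1 were named after their values were seen, as a check of the tissue. Beside those named, lists of proliferation, muscle, endothelial, plasma and mast cell genes were read. Alternatives were DESeq2 1.42.0, RLE and upper-quartile scaling, 2 other filters, the likelihood ratio test, fits of just the 2 groups of a comparison, a replicate block, a B cell covariate, a ratio pseudocount of 0.5, and leaving out libraries. The ratios and lists without 2 libraries, and the lists with the B cell covariate, were added after seeing the data. Figures were drawn with matplotlib 3.10.9.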

Additional observations from a re-analysis of the deposited data

Results flagged for a closer look

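One value stood far from its group. Cd3g in Control-STAM-nonINS replicate 1 was at -0.11 on the log2 CPM scale (12 counts), against 1.34 in the next library of its group, and this gap was 0.935 of the range of the 4 libraries. Among the 30 sets of group and gene examined in this way, chance gives about 1.5 such cases. Without that library, the log2 fold change of Cd3g with insulin in the control genotype was 1.49 (adjusted p from edgeR 0.0127).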

How the results depend on the processing

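Of 600 values of the 10 genes under alternatives, 544 kept their direction and side of the threshold, 21 lost a call, 17 gained one and 18 changed sign. The calls of Cd3g, Cd8a and Itgae with insulin were kept in every alternative run, that of Cd3e was lost in 9 of 20, and that of Gzma between ieIRKO-STAM-INS and Control-STAM-nonINS in 12 of 20. Between the insulin-treated groups, 0 of 212 values were called. The cause of each change was not tested. The number of all genes called between the insulin-treated groups, 34, became 133 with DESeq2, 90 with the likelihood ratio test and 14 with the B cell covariate. For ieIRKO-STAM-INS against Control-STAM-nonINS, the 2036 genes became 1186 with that covariate, 1270 without libraries 2 and 3 and 1038 when only both groups were fitted. Leaving out single libraries gave 824 (without Control-STAM-nonINS replicate 1) to 1877 genes for insulin, 29 to 50 between the insulin-treated groups and 1093 (without Control-STAM-nonINS replicate 1) to 2274 for the last comparison. The T cell genes called then numbered 3 to 6, 0 and 5 to 8. DESeq2 called 6, 0 and 9 of them.

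With the B cell covariate, signs changed between the insulin-treated groups for Cd3e (-0.56), Cd3g (-0.19), Cd4 (-0.21), Cd8a (-0.029), Cd8b1 (-0.074), Itgae (-0.23) and Ccl5 (-0.11), and for Cd4 against Control-STAM-nonINS (-0.31). Without libraries 2 and 3 they changed for Cd3e (-0.23), Cd4 (-0.044), Itgae (-0.086) and Ccl5 (-0.027), and for Cd4 against Control-STAM-nonINS (-0.23). With single libraries left out, Cd4 ran from -0.30 to 0.036 with insulin and from -0.014 to 0.43 for ieIRKO-STAM-INS libraries against untreated controls, and between the insulin-treated groups Itgae ran from -0.066 to 0.16 and Ccl5 from -0.12 to 0.33.

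Of the 24 ratio tests, 0 to 4 passed with single libraries left out, against 3 with all. Without libraries 2 and 3 the log2 ratios between the insulin-treated groups were -0.14 for Cd4 to Cd8a, 0.18 for Itgae to Cd3e and 0.27 for Ccl5 to Cd3e. With single libraries left out they ran from -0.059 to 0.19 for Cd4 to Cd8a, from -0.14 to 0.37 for Gzma to Cd3e, from -0.031 to 0.38 for Gzmb to Cd3e, from -0.31 to 0.057 for Itgae to Cd3e and from -0.21 to 0.25 for Ccl5 to Cd3e. Against Control-STAM-nonINS, ieIRKO-STAM-INS gave -0.15 to 0.33 for Cd3d to Cd3e and -0.36 to 0.38 for Cd8b1 to Cd8a, the latter 0.081 with a pseudocount of 0.5.

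With the replicate number as a block, 1397, 30 and 1615 genes were called in the 3 comparisons. Whether the numbers pair the mice is not stated in the sources used here, and these values cannot decide it. Correlations of same-numbered libraries ran from -0.02 to 0.18, from -0.02 to 0.17 and from -0.09 to 0.05. In turn, 2 of 4, 1 of 6 and 1 of 4 libraries correlated best with their own number. Under the block, 3, 0 and 6 of the 10 T cell genes were called. Counts of 1 to 17 limit Cd8b1 in most libraries.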
